A study of Homo sapiens with 6 samples.

Results

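The 10 genes described here encode receptors of the epidermal growth factor family (EGFR, ERBB2, ERBB3), ligands for these receptors (HBEGF, AREG, EREG, TGFA, NRG1) and inhibitors of the receptors (LRIG1, ERRFI1). They were taken by symbol from tables of read counts with 56638 gene rows each, and all 10 symbols were present. Total RNA of 6 libraries was sequenced, all from cells that carry the label SW480, a line derived from a human colorectal adenocarcinoma. In the TGFB1 group (3 libraries) the secreted cytokine TGF-β1 had been added repeatedly (more than 4 times) at 10 ng/ml, while the Control group (3 libraries) had no such addition. Both groups were grown in RPMI-1640 with fetal bovine serum and were at passages 16 to 19. The sources used here do not say how long the exposure lasted or whether each library is a separate culture. The p-values therefore measure the spread between these libraries only, and that spread may be technical.

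EGFR, ERBB2 and ERBB3 are single-pass membrane receptors that pair with each other when ligands bind. EGFR has an active tyrosine kinase and several ligands, ERBB2 has no known ligand of its own, and ERBB3 has a very weak kinase and signals through its partners. The ligands are made as membrane-anchored precursors and released by metalloproteases. Active receptors feed the RAS to ERK and PI3K to AKT relays, and in the intestinal epithelium the family drives growth of the crypt, where LRIG1 marks stem cells and restrains the receptors.

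The receptor that rose with TGF-β1 was EGFR, while ERBB2 and ERBB3 fell. The inhibitors moved in opposite directions, LRIG1 rising 3.01-fold and ERRFI1 falling 2.10-fold. Of the ligands among the 10 genes, HBEGF, TGFA and NRG1 did not pass the test, and AREG and EREG were not tested. NRG4, a ligand outside the 10 genes, fell. So did the ligand EGF, also outside them, which had few counts and passed the count filter through the Control group. The stretches before the start sites of EGFR, ERBB2, LRIG1 and ERRFI1 are shown because these are the called genes for which the RefSeq promoter table has an entry. That table held 8 of the 10 genes, without ERBB3 and NRG1. Each stretch is the 250 bases before the outermost RefSeq start, on GRCh38.p14, 5′ to 3′ on the gene's own strand, and capitals mark matches, on either strand, to the motifs searched below.
EGFR (chr7:55018767-55019016, plus strand): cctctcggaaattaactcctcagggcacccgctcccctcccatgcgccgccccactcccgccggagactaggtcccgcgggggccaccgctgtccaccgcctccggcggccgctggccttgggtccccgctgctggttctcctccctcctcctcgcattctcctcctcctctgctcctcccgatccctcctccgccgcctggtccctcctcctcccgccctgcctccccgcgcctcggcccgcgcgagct
ERBB2 (chr17:39687844-39688093, plus strand): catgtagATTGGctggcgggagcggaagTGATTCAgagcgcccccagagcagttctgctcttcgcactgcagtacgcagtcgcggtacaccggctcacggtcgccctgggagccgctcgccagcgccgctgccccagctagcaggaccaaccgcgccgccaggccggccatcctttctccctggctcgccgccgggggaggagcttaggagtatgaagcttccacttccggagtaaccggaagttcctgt
LRIG1 (chr3:66501122-66501371, minus strand): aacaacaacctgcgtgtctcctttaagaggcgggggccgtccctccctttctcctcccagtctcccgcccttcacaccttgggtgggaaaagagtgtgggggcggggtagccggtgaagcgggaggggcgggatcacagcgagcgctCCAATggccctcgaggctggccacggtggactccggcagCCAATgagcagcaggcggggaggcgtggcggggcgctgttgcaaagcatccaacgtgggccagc
ERRFI1 (chr1:8026310-8026559, minus strand): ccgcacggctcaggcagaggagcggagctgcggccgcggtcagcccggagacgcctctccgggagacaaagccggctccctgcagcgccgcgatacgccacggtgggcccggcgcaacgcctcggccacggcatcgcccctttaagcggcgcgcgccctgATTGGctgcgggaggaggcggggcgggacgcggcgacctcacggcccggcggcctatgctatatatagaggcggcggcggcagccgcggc
The LRIG1 stretch holds 2 matches to CCAAT (the CCAAT box), the ERBB2 and ERRFI1 stretches hold 1 each on the other strand, and the EGFR stretch holds 0. On both strands, 32% of 35116 RefSeq promoter stretches of the same length hold CCAAT. The letters TGANTCA (a loose form of the AP-1 site with N for any base, in 6.57% of stretches) match at 1 place in the ERBB2 stretch. There the letter at N is T. They match at 0 places in the EGFR, LRIG1 and ERRFI1 stretches. CAGAC (the SMAD box, in 38% of stretches) and TATAAA (the TATA box, in 10.7%) have no match in these 4 stretches. Only these exact letters were searched, so other forms of the boxes were not counted. The ERRFI1 stretch holds the letters tatatata, which this search left out. The bases G and C make up 73.6% of the EGFR stretch, 65.6% of the ERBB2 stretch, 66.8% of the LRIG1 stretch and 75.2% of the ERRFI1 stretch. The promoter table holds 2 entries for EGFR, 4 for LRIG1 and 1 each for ERBB2 and ERRFI1, which need not be all their starts. Which starts these cells used was not measured.

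Library totals ran from 13012898 to 16005222 counts in genes. A count of 0 over the 3 TGFB1 libraries allows up to 0.0676 CPM (counts relative to the scaled library total) and over the 3 Control libraries up to 0.0697 CPM, counting error only. Of 12 colorectal epithelial markers only EPCAM, KRT8 and KRT18 had enough counts to be tested. EPCAM, an epithelial adhesion molecule, stood at 4.05 ± 1.00 CPM in TGFB1 and 6.93 ± 0.542 CPM in Control libraries (SD, n = 3 each) and fell, as did KRT18, and KRT8 did not pass (edgeR adjusted p = 0.000246, 1.73e-10 and 0.628). CDX2 and GPA33 had 0 counts in all 6 libraries, and KRT20 stood at 0.0957 CPM in TGFB1 and 0.0937 CPM in Control libraries, so these intestinal markers of the labelled cell type were at 0 or near the floor. The 10 fibroblast markers summed to between 119.9 and 136 CPM in TGFB1 and between 90.8 and 94.9 CPM in Control libraries, of which COL1A1 gave 105 CPM in TGFB1 and 81.2 CPM in Control libraries on average. All 5 tested fibroblast markers rose. Among them, FAP had 17, 22 and 12 counts in TGFB1 libraries, against 0, 0 and 1 counts in Control libraries, and so entered the test only through the TGFB1 group. THY1 had 20, 21 and 11 counts in TGFB1 libraries, against 7, 12 and 4 counts in Control libraries. It too passed the count filter through the TGFB1 group, and its groups overlapped. Of the untested ones, COL1A2, COL3A1 and PDGFRA had at most 2 counts in any TGFB1 library and 0 in Control libraries. LUM went the other way, with 0, 0 and 3 counts in TGFB1 libraries, against 5, 3 and 1 counts in Control libraries. POSTN had 0 counts in TGFB1 libraries, against 1, 0 and 0 counts in Control libraries. The part of the fibroblast markers in the results below was not tested. Immune markers summed to at most 0.915 CPM in TGFB1 and 1.07 CPM in Control libraries. The endothelial list was at most 0.882 CPM in TGFB1 and 3.27 CPM in Control libraries. VWF averaged 0.510 CPM in TGFB1 and 2.66 CPM in Control libraries, and PECAM1 and KDR were at 0 throughout. In bulk RNA, fewer cells of a type and less RNA per cell cannot be told apart.

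Of the 10 genes, 8 had enough counts to be tested, and AREG and EREG did not. In edgeR's quasi-likelihood test over 14897 genes, with Benjamini-Hochberg adjustment over all of them and a threshold of 0.05, 2 of the 8 rose, 3 fell and 3 did not pass. Among all tested genes 47.3% were called, 23.4% higher and 23.9% lower, so the 5 of 8 called (62.5%) are read against that background and are not in themselves a result about these genes. Among all tested genes 9.5% were called with a fold of at least 2 in either direction, as were LRIG1, ERBB3 and ERRFI1 here. The median log2 fold change (TGFB1 minus Control throughout) was −0.11 over the 8 tested genes, against 0.000334 over all tested genes. In the 5 called genes the TGFB1 libraries did not overlap the Control libraries, which was so for 54.2% of all tested genes.

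**Figure D1:**
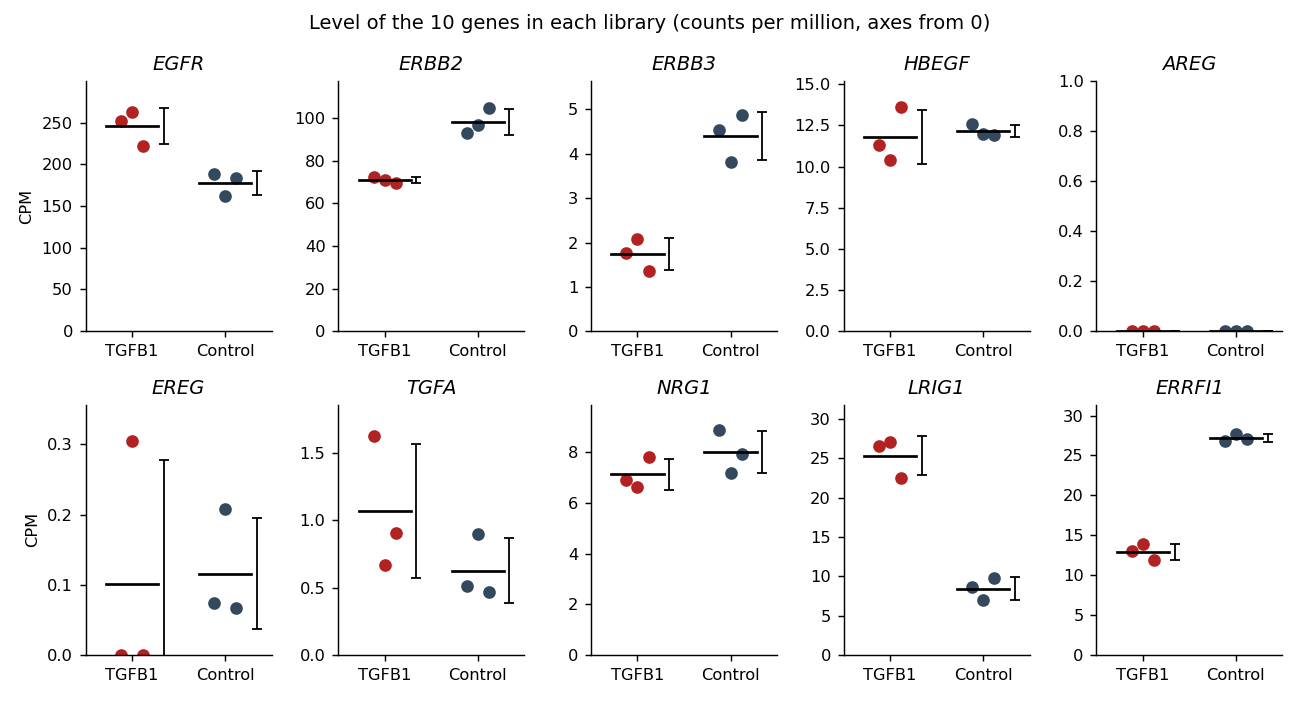
Level in CPM (y axis, from 0, a separate scale per gene) of each of the 10 genes in the 3 TGFB1 and 3 Control libraries, with points for libraries, horizontal lines for means and bars for the SD. EGFR and LRIG1 libraries of the TGFB1 group lie above all Control libraries, ERBB2, ERBB3 and ERRFI1 libraries lie below them, and the other genes overlap.

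Among the receptors, EGFR had 252, 263 and 222 CPM in TGFB1 libraries 1, 2 and 3, against 189, 162 and 183 CPM in Control libraries 1, 2 and 3. All TGFB1 libraries were above all Control libraries, with TGFB1 library 3 the nearest to them. The mean was 246 ± 21.6 CPM in TGFB1 and 178 ± 14.4 CPM in Control libraries (SD, n = 3 each), a 1.38-fold rise (log2 fold change 0.47 ± 0.063 SE, edgeR adjusted p = 1.68e-06).

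ERBB2, the partner that pairs with ligand-bound receptors, had 72.4, 71.0 and 69.7 CPM in TGFB1 libraries, against 92.9, 96.7 and 105 CPM in Control libraries. The TGFB1 libraries lay close together and below every Control library. ERBB2 fell 1.38-fold (log2 fold change −0.47 ± 0.058 SE, edgeR adjusted p = 1.04e-07), as large a change as that of EGFR in the opposite direction.

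ERBB3, the receptor for neuregulins, had 26, 34 and 18 counts in TGFB1 libraries, against 62, 55 and 73 counts in Control libraries. It was thus far scarcer than the other receptors, at 1.73 ± 0.360 CPM in TGFB1 and 4.41 ± 0.541 CPM in Control libraries (SD, n = 3 each), and the groups did not overlap. Its 2.51-fold fall (log2 fold change −1.33 ± 0.21 SE, edgeR adjusted p = 6.86e-06) ranked 377 among the falls of all 14897 tested genes.

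Per kilobase of exon, EGFR stood at 21.7 ± 1.90 and ERBB2 at 12.5 ± 0.237 CPM per kilobase in TGFB1 libraries, and no EGFR library overlapped an ERBB2 library. In Control libraries EGFR stood at 15.7 ± 1.27 and ERBB2 at 17.3 ± 1.09 CPM per kilobase (SD, n = 3 each). The Control values of these genes overlapped. By longest transcript instead of exon length, the Control means were 18.1 for EGFR and 20.5 CPM per kilobase for ERBB2. The Control values then did not overlap, with ERBB2 above EGFR. EGFR made up 62.8% ± 1.72 of the summed per-kilobase level of the 3 receptors in TGFB1 libraries and 46.6% ± 2.48 in Control libraries. The EGFR to ERBB2 ratio of counts was 3.49, 3.71 and 3.18 in TGFB1 libraries, against 2.03, 1.67 and 1.74 in Control libraries, a difference of 0.93 on the log2 scale (exact two-sided permutation test, p = 0.1, the smallest that 3 against 3 libraries allow). Because EGFR rose and ERBB2 fell without overlap, this outcome was fixed in advance and adds nothing to the calls of these genes. The ERBB2 to ERBB3 ratio was 41.0, 34.2 and 51.4 in TGFB1 libraries, against 20.4, 25.4 and 21.6 in Control libraries. Every TGFB1 library was above every Control library, with a mean difference of 0.88 on the log2 scale (exact two-sided permutation test, p = 0.1, again the smallest possible).

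**Figure D2:**
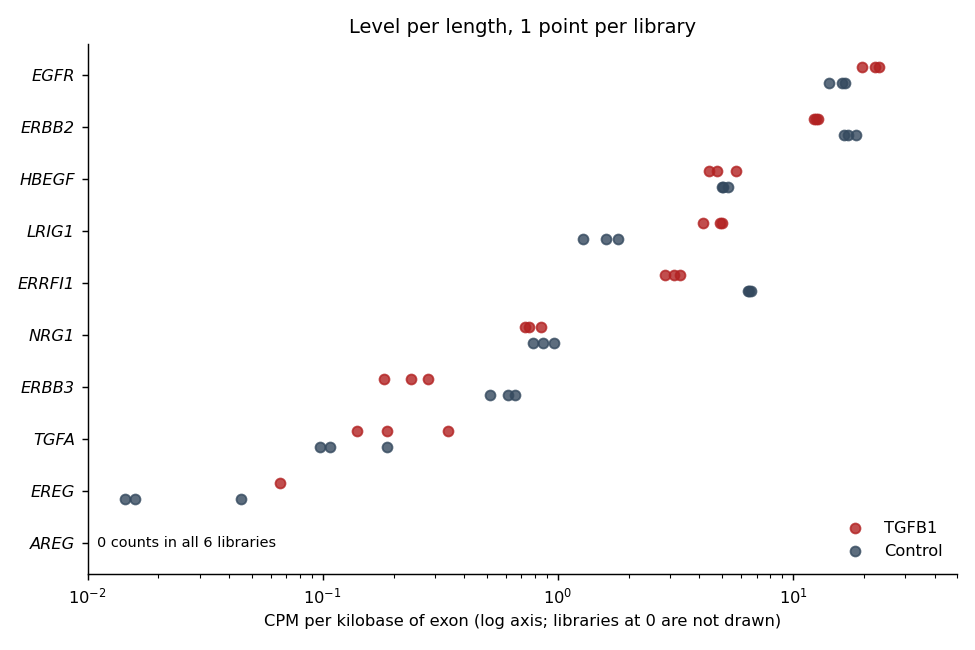
CPM per kilobase of exon (x axis, log scale) of the 10 genes (rows), with 1 point per library, TGFB1 above Control in each row and libraries at 0 not drawn. EGFR and ERBB2 lie highest, LRIG1 moves up to the level of HBEGF in TGFB1 libraries, and ERBB3, NRG1, TGFA and EREG lie below 1 CPM per kilobase.

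Of the EGFR ligands with counts, HBEGF, the heparin-binding growth factor, was the most abundant in both groups and showed no detectable change. The level of AREG, a further ligand, is not known here. It had 11.3, 10.4 and 13.6 CPM in TGFB1 libraries, against 12.6, 11.99 and 11.9 CPM in Control libraries. The Control values lay within the range of the TGFB1 values, and the log2 fold change was −0.053 with a 95% interval of −0.28 to 0.18 (edgeR adjusted p = 0.733). HBEGF made up 95.2% ± 1.76 of the summed per-kilobase level of HBEGF, AREG, EREG and TGFA in TGFB1 libraries and 97.0% ± 1.27 in Control libraries (SD, n = 3 each). These shares leave out any AREG reads that were not counted.

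TGFA, which encodes transforming growth factor α, had 24, 11 and 12 counts in TGFB1 libraries, against 7, 13 and 7 counts in Control libraries. TGFB1 library 1 was the highest, and TGFB1 library 2, at 0.671 CPM, lay below Control library 2, at 0.901 CPM. The log2 fold change was 0.75 with a 95% interval of −0.072 to 1.57 (edgeR adjusted p = 0.129). TGFA reached the level of the count filter in 3 TGFB1 libraries and 1 Control library. Single libraries decided the value. Without TGFB1 library 1 the log2 fold change was 0.31 (edgeR adjusted p = 0.636), and without TGFB1 library 2 it was 1.02 and the gene passed (edgeR adjusted p = 0.0479).

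EREG (epiregulin) had 0, 5 and 0 counts in TGFB1 libraries, against 1, 3 and 1 counts in Control libraries, too few for a test. The scaled ratio of its summed counts was 0.970 with an exact 95% interval of 0.223 to 4.21, counting error only, so no difference was detectable at this depth. AREG (amphiregulin) had 0 counts in all 6 libraries. So did a second row of the tables, AREGB, which RefSeq now lists as a synonym of AREG. Reads aligned to more than 1 place were left out of gene counts, and AREG reads among them would not appear here. The 0 of AREG is therefore not a measured absence.

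NRG1 (neuregulin 1), the listed ligand for ERBB3 and ERBB4, had 6.92, 6.65 and 7.84 CPM in TGFB1 libraries, against 8.87, 7.21 and 7.93 CPM in Control libraries. The groups overlapped, and the log2 fold change was −0.17 with a 95% interval of −0.44 to 0.10 (edgeR adjusted p = 0.315). Per kilobase, NRG1 at 0.775 ± 0.0675 in TGFB1 and 0.869 ± 0.0906 CPM per kilobase in Control libraries stood above its receptor ERBB3, at 0.233 ± 0.0485 in TGFB1 and 0.593 ± 0.0729 CPM per kilobase in Control libraries (SD, n = 3 each).

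LRIG1, a membrane protein that promotes breakdown of ERBB receptors, rose most among the 8 tested genes. It had 392, 443 and 298 counts (26.6, 27.0 and 22.4 CPM) in TGFB1 libraries, against 118, 100 and 146 counts (8.65, 6.93 and 9.73 CPM) in Control libraries. The lowest TGFB1 library was above the highest Control library. The log2 fold change was 1.59 ± 0.11 SE (edgeR adjusted p = 9.72e-13), and 4.62% of all tested genes had a larger absolute log2 fold change. SLC25A26, named here because its exons overlap those of LRIG1 on the opposite strand over 131 bases in GENCODE 29, also rose, with 561 counts in TGFB1 and 378 in Control libraries (log2 fold change 0.53, edgeR adjusted p = 0.000533). The sources used here do not name the strand setting of the counting, so reads from the overlap cannot be told apart. The same holds for PGAP3 (194 exon bases shared with ERBB2, 383 counts in TGFB1 and 363 in Control libraries) and for EGFR-AS1 (186 exon bases shared with EGFR, 9 counts in TGFB1 and 8 in Control libraries). ERRFI1 shares 155 exon bases with AL034417.4 on the opposite strand, and ERBB3 shares 31 with AC034102.2 on the same strand. Neither AL034417.4 nor AC034102.2 has a row in the counts, so their reads could not be checked.

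ERRFI1, also known as MIG6, a cytoplasmic protein that binds and blocks the EGFR kinase and is itself induced by receptor signalling, fell. It had 191, 227 and 158 counts (13.0, 13.8 and 11.9 CPM) in TGFB1 libraries, against 365, 400 and 405 counts (26.8, 27.7 and 27.0 CPM) in Control libraries. Every TGFB1 library lay below every Control library, and the Control libraries were nearly equal. The log2 fold change was −1.07 ± 0.087 SE (edgeR adjusted p = 2.98e-11), and 8.62% of all tested genes had a larger absolute log2 fold change.

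Per kilobase, LRIG1 stood at 4.67 ± 0.465 and ERRFI1 at 3.09 ± 0.233 CPM per kilobase in TGFB1 libraries, while in Control libraries LRIG1 stood at 1.56 ± 0.261 and ERRFI1 at 6.51 ± 0.119 CPM per kilobase (SD, n = 3 each). In neither group did the libraries of these genes overlap. LRIG1 in TGFB1 libraries did overlap HBEGF, at 4.94 ± 0.693 CPM per kilobase there. With the longest transcript in place of the exon length, the mean of LRIG1 was still above that of ERRFI1 in TGFB1 libraries (4.80 and 4.16 CPM per kilobase). The libraries of these genes then overlapped in that group. In Control libraries LRIG1 was below ERRFI1 (1.60 and 8.75 CPM per kilobase).

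Within each library, EGFR counts were 9.49, 9.74 and 9.87 times those of LRIG1 in the TGFB1 group, against 21.8, 23.3 and 18.8 times in the Control group. The log2 ratio was 3.28 ± 0.028 in TGFB1 and 4.40 ± 0.16 in Control libraries (SD, n = 3 each), a difference of −1.13 (exact two-sided permutation test, p = 0.1, the smallest possible), with the TGFB1 libraries all below the Control libraries. Against ERRFI1 the ratio moved the other way, with EGFR counts at 19.5, 19.0 and 18.6 times those of ERRFI1 in TGFB1 libraries, against 7.06, 5.83 and 6.78 times in Control libraries. That difference was 1.54 on the log2 scale (exact two-sided permutation test, p = 0.1, the smallest possible). EGFR rose and ERRFI1 fell without overlap, so this outcome too was fixed in advance and adds nothing to their calls. The TGFB1 and Control libraries did not overlap in any of the 4 ratios computed, of which 3, all but EGFR to LRIG1, were chosen after the values were seen. Their p-values all stay at 0.1 after Benjamini-Hochberg adjustment over the 4.

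**Figure D3:**
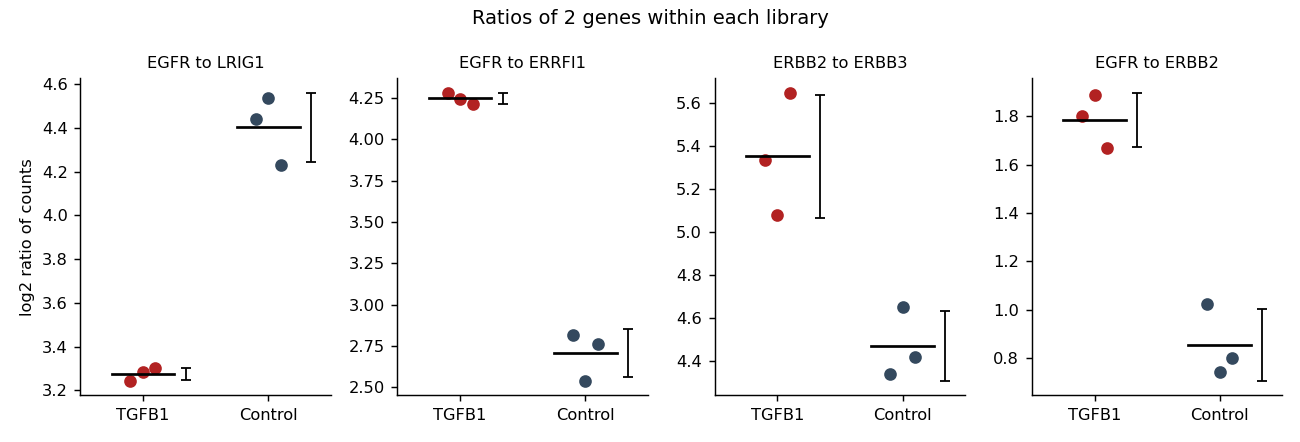
Log2 ratio of the counts of 2 genes within each library (y axis, not from 0, a separate scale per panel), with points for libraries, lines for means and bars for the SD, TGFB1 left of Control. EGFR to LRIG1 is lower in the TGFB1 libraries and the other 3 ratios are higher.

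By likeness of pattern, measured as the root mean square difference of centred log2 CPM over the 6 libraries, TMEM50B (0.0181) and SSFA2 (0.024) were nearest to EGFR among tested genes. Nearest to LRIG1 were ARHGEF40 (0.0476), which stood at 56.1 ± 4.68 CPM in TGFB1 and 19.8 ± 3.18 CPM in Control libraries, and COL4A4 (0.0532), a collagen IV chain, at 46.5 ± 5.12 CPM in TGFB1 and 15.2 ± 2.31 CPM in Control libraries (SD, n = 3 each). With 6 libraries in 2 groups, such likeness mostly reflects a like fold change.

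Of the 7 other receptors and ligands of the family, 3 were tested, 2 fell and 1 did not pass (66.7% called, against 47.3% of all tested genes, 23.9% lower). NRG4, a neuregulin that binds ERBB4, had 14.0, 10.0 and 14.2 CPM in TGFB1 libraries, against 24.1, 27.1 and 24.6 CPM in Control libraries, a 2.00-fold fall (log2 fold change −0.999 ± 0.106 SE, edgeR adjusted p = 7.10e-09). It was the neuregulin with the highest level per kilobase in both groups, at 10.99 ± 2.04 in TGFB1 and 21.8 ± 1.38 CPM per kilobase in Control libraries (SD, n = 3 each). EGF had 13, 6 and 8 counts in TGFB1 libraries, against 26, 28 and 22 counts in Control libraries, and fell (log2 fold change −1.52 ± 0.34 SE, edgeR adjusted p = 0.000446). EGF reached the level of the count filter in 1 TGFB1 library and in all 3 Control libraries, and so passed it through the Control group. NRG2 stood at 1.01 ± 0.385 CPM in TGFB1 and 1.00 ± 0.123 CPM in Control libraries (SD, n = 3 each) and did not pass.

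ERBB4, the receptor for NRG1 and NRG4, was near the floor, with 0, 1 and 2 counts in TGFB1 libraries, against 6, 7 and 10 counts in Control libraries. The groups did not overlap, and the scaled ratio of summed counts was 0.127 with an exact 95% interval of 0.0243 to 0.419, counting error only. It had too few counts for the filter, and passed when no filter was used (edgeR adjusted p = 0.00275). BTC and EPGN had at most 4 counts in any library, and NRG3 had 0 throughout.

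**Figure D4:**
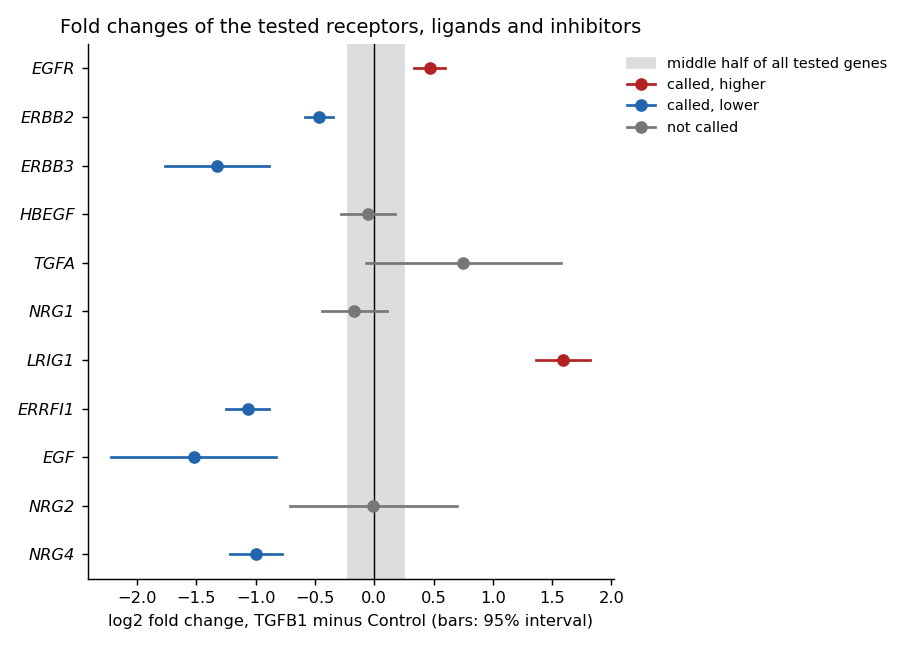
Log2 fold change, TGFB1 minus Control (x axis), of the 8 tested genes among the 10 and of EGF, NRG2 and NRG4, with bars for the 95% interval from the edgeR fit and a grey band for the interquartile range of all 14897 tested genes. EGFR and LRIG1 lie to the right of the band, ERBB2, ERBB3, ERRFI1, EGF and NRG4 to its left, and the other intervals cross 0.

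Of 7 tested genes for the release of the ligands, 6 rose and 1 did not pass, 85.7% called against 47.3% of all tested genes (23.4% higher), with a median log2 fold change of 0.43 against 0.000334 over all tested genes. RHBDF2 (iRhom2), which carries the protease ADAM17 to the cell surface, rose 2.27-fold, to 23.6 ± 1.20 CPM in TGFB1, against 10.4 ± 0.962 CPM in Control libraries (SD, n = 3 each, edgeR adjusted p = 2.86e-11). FRMD8, which stabilises iRhoms, rose 1.42-fold and the protease ADAM12 1.48-fold (edgeR adjusted p = 2.19e-07 and 2.57e-06). The gene that did not pass was ADAM17 itself, which sheds TGFA, AREG and HBEGF, at 35.1 ± 1.80 CPM in TGFB1 and 35.4 ± 4.38 CPM in Control libraries, with a 95% interval of the log2 fold change of −0.17 to 0.16. ADAM10, named after its values were seen as the protease that releases EGF, rose by 0.26 on the log2 scale (edgeR adjusted p = 0.000418). The ligand-release list was chosen with earlier results of these data known, so its share and median only describe these genes.

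Of 19 tested genes for receptor turnover and further inhibition, 5 rose, 3 fell and 11 did not pass, 42.1% called against 47.3% of all tested genes, with a median log2 fold change of 0.030. With scaling by library size alone 8 rose and 3 fell. SOCS5, which promotes breakdown of EGFR, fell 1.60-fold, to 24.6 ± 1.73 CPM in TGFB1, against 39.4 ± 2.86 CPM in Control libraries (SD, n = 3 each, edgeR adjusted p = 2.12e-08), and RNF115, a ubiquitin ligase, fell 1.38-fold (edgeR adjusted p = 5.87e-07). The phosphatase PTPN12 rose 1.30-fold (edgeR adjusted p = 5.20e-06). The paralogues of LRIG1, named after their values were seen, gave different results. LRIG3 rose 1.46-fold (edgeR adjusted p = 0.000204), while LRIG2 stood at 16.6 ± 0.514 CPM in TGFB1 and 16.4 ± 0.998 CPM in Control libraries (SD, n = 3 each) and did not pass (edgeR adjusted p = 0.881).

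Of 30 tested adaptors and relay genes, 5 rose, 9 fell and 16 did not pass, 46.7% called against 47.3% of all tested genes, with a median log2 fold change of −0.041. With scaling by library size alone 8 rose and 3 fell, so the balance of directions depends on the scaling. The number called was 8 without TGFB1 library 1 and to 8 without Control library 3. SRC, a kinase that acts with the receptors, rose 1.47-fold, to 49.4 ± 1.69 CPM in TGFB1, against 33.6 ± 1.76 CPM in Control libraries (SD, n = 3 each, edgeR adjusted p = 6.45e-08). The kinase gene AKT1 fell 1.30-fold and PIK3CB, a catalytic PI3K subunit, 1.26-fold (edgeR adjusted p = 2.82e-07 and 8.20e-05).

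Of 18 tested genes known to respond to ERK signalling, 15 rose, 2 fell and 1 did not pass, 94.4% called against 47.3% of all tested genes (23.4% higher), with a median log2 fold change of 0.80. Among the 15, DUSP6 and SPRY4 reached the level of the count filter in 3 TGFB1 and 0 Control libraries, so they were tested only through the group where they are high. With at least 1 CPM asked of 3 libraries, 13 of 16 tested genes rose and 2 fell. IER3, an early response gene, rose 5.12-fold, to 72.1 ± 1.39 CPM in TGFB1, against 14.1 ± 1.28 CPM in Control libraries (SD, n = 3 each, edgeR adjusted p = 1.64e-20). The transcription factor genes MYC and ETV4 rose 2.14-fold and 1.88-fold (edgeR adjusted p = 1.14e-17 and 5.29e-12). SPRY2, a feedback inhibitor of receptor signalling named with ETV5 after the values were seen, rose 3.02-fold (edgeR adjusted p = 7.66e-08) and ETV5 2.54-fold (edgeR adjusted p = 2.34e-09). Those that fell were FOS (log2 fold change −0.91, edgeR adjusted p = 2.46e-08) and DUSP5 (−0.30, edgeR adjusted p = 0.0195), and DUSP4 did not pass. The DUSP5 call ended in DESeq2, with scaling by library size alone, and without TGFB1 library 2, Control library 2 or Control library 3 (adjusted p = 0.0569 to 0.0890). The list was chosen with earlier results of these data known, so its share and median only describe these genes. The gene lists share the Control and TGFB1 libraries with the 10 genes, and many of these genes also respond to inputs other than ERBB receptors.

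**Figure D5:**
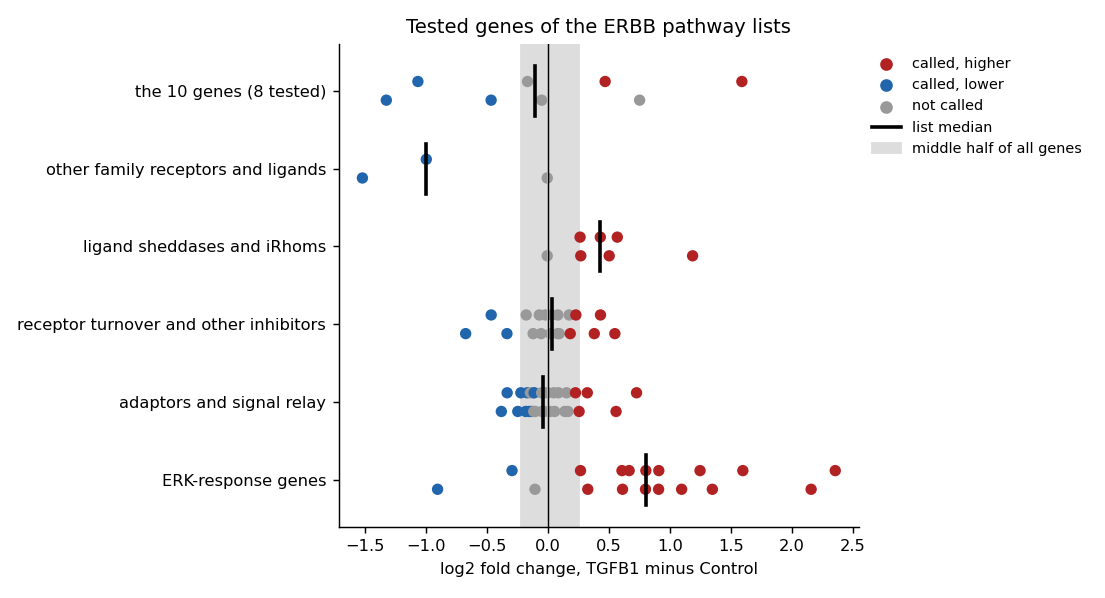
Log2 fold change, TGFB1 minus Control (x axis), of each tested gene in the 10-gene set and in 5 further lists of the ERBB pathway (rows), coloured by the edgeR call, with black lines for list medians and a grey band for the interquartile range of all tested genes. The median of the ERK-response list is 0.80 and that of the ligand-release list 0.43, while the relay and turnover lists centre near 0.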

How the data were processed

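RNA of 3 TGFB1 and 3 Control libraries was sequenced, and the authors deposited whole-number read counts per gene symbol, without normalization. Per the submitters' processing notes, TopHat2 2.0.11, TopHat, HTSeq, hg19 and GRCh37 were used, with no roles given. The sources used here do not name the annotation, the strand setting or any read filter. The totals lines of each table (no feature 5.44% to 5.98%, ambiguous 9.01% to 9.43%, aligned to more than 1 place 12.0% to 12.5%) stayed out of library sizes and tests. All replicate pairs differed by more than sampling noise (chi-square over its degrees of freedom between 1.82 and 4.67).

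Genes were filtered with filterByExpr (minimum count 10, minimum total 15), scaled by TMM and tested with edgeR 4.0.16 (robust glmQLFit and glmQLFTest, R 4.3.3) with Benjamini-Hochberg adjustment over 14897 genes. The tests were tried on simulated data. CPM was taken relative to library totals after TMM scaling. Levels per kilobase used the merged exon length of the gene in GENCODE 29, a GRCh38 annotation from which no coordinates are printed. Ratios used a pseudocount of 0.5 counts on the log2 scale. Named genes were the 10 genes, 7 other family members, the 3 lowest p of each further list, 2 like patterns each for EGFR and LRIG1, and 3 label checks. SLC25A26, the other genes with shared exons, AREGB and other markers fall outside that rule. So do ADAM17, FOS, DUSP4, DUSP5, DUSP6, SPRY4 and the genes said to be named after their values were seen. The 10 genes and the lists were chosen with earlier results of these data known.

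Alternatives were DESeq2 1.42.0, limma-voom (limma 3.58.1), other scalings and filters, a replicate block and leaving out each library. Same-numbered libraries did not deviate together (correlations of −0.107 to 0.0306), so the numbers were not taken as pairs.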

Additional observations from a re-analysis of the deposited data

How the results depend on the processing

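The 5 called genes (EGFR, ERBB2, ERBB3, LRIG1, ERRFI1) kept direction and call under all 13 alternatives. With each library left out in turn, log2 fold changes ran from 0.39 to 0.54 for EGFR and from 1.46 to 1.70 for LRIG1. The block on replicate number left 5 of the 10 genes called, and 6775 of all genes against 7044. It changed no call of a named gene. Of 519 results for named genes under alternatives, 498 kept direction and call. The EGFR to LRIG1 difference stayed between −1.21 and −1.06, and was −1.09 with a pseudocount of 5 counts.

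In the adaptor and relay list 14 genes were called, 9 in DESeq2, and 8 to 13 with 1 library left out. Over all genes 49.4% of calls were rises, 59.4% with scaling by library size alone, which moved the median log2 fold change to 0.0571. Under that scaling HBEGF (0.0037), NRG2 (0.049), ADAM17 (0.049) and KRT8 (0.028) changed sign, as did NRG2 in DESeq2 (0.0039), all uncalled genes near 0. With 1 library left out, sign changes came for HBEGF (−0.16 to 0.032), NRG2 (−0.31 to 0.20), LRIG2 (−0.027 to 0.056) and ADAM17 (−0.10 to 0.075), again uncalled, and DUSP4 passed without Control library 1 (adjusted p = 0.0299). The causes were not tested. With at least 1 CPM asked of 3 libraries, TGFA was not tested. Depth limits what can be said of genes with few counts, such as TGFA, EREG and ERBB4, which had 24 counts or fewer in each library.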
